A study of Mus musculus with 24 samples.

Results

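The ribosomal protein genes encode the protein parts of the cytoplasmic ribosome. Their promoters were examined for peaks of CTCF and of Rad21 in chromatin immunoprecipitation with sequencing (ChIP-seq) of mouse v-Abl transformed pro-B cells. Members are protein-coding genes of the GENCODE vM1 annotation (mouse build mm9) with the symbol Rpl or Rps followed by a digit, plus Rplp0, Rplp1, Rplp2 and Rpsa. S6 kinase genes, names with -ps and chromosome 12 were left out, and no measured value entered the choice. This gave 81 members among 21663 protein-coding genes, and the other 21582 genes served as the background. Of the members, 42 carry large-subunit symbols, 30 carry small-subunit symbols (Rpsa included), 3 encode the stalk proteins P0, P1 and P2, and 6 are relatives with a suffix (Rpl22l1, Rpl39l, Rpl3l, Rpl7l1, Rps27l) or the binding protein gene Rps19bp1. A promoter is the sequence within 1000 bp on either side of any annotated transcript start, and a gene was called in a library when at least 1 bp of a deposited peak lay in it.

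The 16 immunoprecipitated libraries fall into 6 groups. All cells lacked RAG2, carried an Eμ-Bcl2 transgene and received 3 µM STI-571, an Abl kinase inhibitor, for 4 days. Parental cells without IAA gave 3 CTCF and 3 Rad21 libraries, and a CTCF-degron line gave as many. The CTCF-degron cells received the auxin IAA at 500 µM, first for 6 h and then throughout the STI-571 step. Rad21 was also profiled in a Rad21-degron line, in 2 libraries without IAA and 2 with it, at 500 µM and with the same 6 h pretreatment. In a degron line the tagged protein is meant to be degraded once IAA is added. For the CTCF degron the cell line and the IAA change together, so effects of line, auxin and loss of CTCF cannot be told apart. Nothing in the labels says that replicates are separate cultures, so p-values measure the spread between these libraries only. The labels call the cells pro-B, which peak lists cannot check because they hold no expression values.

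Ribosomal protein genes are among the most highly transcribed genes of growing cells, and their products are needed in equal amounts. Their promoters are usually rich in CpG. CTCF is a zinc-finger protein that binds a long motif, and cohesin, the ring complex that contains Rad21, extrudes chromatin loops and pauses at bound CTCF. Cohesin is also known to load and collect at active promoters.

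Promoter DNA is given for the member with the highest-ranked CTCF peak and for the pair that had a Rad21 peak in all 3 parental Rad21 libraries and a CTCF peak in none. Each run is 300 bases of the gene strand in mm9, from 250 bases before the most upstream annotated start to 50 bases from it on. Capitals mark the motifs found in the run on either strand: the core CTCF motif, GGGCGG (SP1), TATAAA and the pyrimidine string CTTTCC.
Rplp0, chr5:116009226-116009525, plus strand: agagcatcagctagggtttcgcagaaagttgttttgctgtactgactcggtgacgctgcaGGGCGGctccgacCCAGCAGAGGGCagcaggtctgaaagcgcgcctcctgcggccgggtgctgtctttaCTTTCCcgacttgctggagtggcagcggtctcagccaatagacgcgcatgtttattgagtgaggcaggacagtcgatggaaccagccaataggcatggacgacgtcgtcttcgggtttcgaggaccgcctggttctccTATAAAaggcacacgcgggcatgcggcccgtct
Rpl28, chr7:4744226-4744525, plus strand: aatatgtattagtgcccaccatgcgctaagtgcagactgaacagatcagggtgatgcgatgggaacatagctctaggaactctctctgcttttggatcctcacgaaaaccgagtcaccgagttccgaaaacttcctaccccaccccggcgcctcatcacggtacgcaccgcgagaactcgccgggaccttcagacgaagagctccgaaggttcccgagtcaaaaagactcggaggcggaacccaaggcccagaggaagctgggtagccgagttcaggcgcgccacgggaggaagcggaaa
Rpl12, chr2:32816829-32817128, plus strand: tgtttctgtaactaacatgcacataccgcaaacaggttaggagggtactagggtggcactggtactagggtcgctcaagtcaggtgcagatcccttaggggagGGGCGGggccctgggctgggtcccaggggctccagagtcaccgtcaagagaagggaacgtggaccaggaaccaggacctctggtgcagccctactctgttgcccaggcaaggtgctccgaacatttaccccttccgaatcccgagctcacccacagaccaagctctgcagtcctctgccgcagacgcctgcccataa
The Rplp0 run holds all 4 of these motifs, the Rpl28 run holds none, and the Rpl12 run holds the SP1 letters alone.

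Over all 81 promoters, the core CTCF motif, which is 12 letters long, was in the 300-base run of 3 members (3.70%) and of 0.519% of other genes. AAGATGGC, the YY1 letters, were in 7.41% of members and 3.26% of other genes. CCGGAAG, the ETS letters, were in 28.4% and 10.7%. GGGCGG was in 48.1% and 43.2%, TATAAA in 12.3% and 13.6%, and CTTTCC in 35.8% and 26.2%. The promoters also differed in base composition: 61.7% of members and 32.4% of other genes had a high-CpG promoter (GC of at least 55% and CpG observed over expected of at least 0.75, within 250 bp of the start). Median GC was 58.7% in members and 57.1% in other genes, so it was the CpG ratio, 0.854 against 0.580, that separated them more. A motif match describes the letters of the run and is not a binding site in itself.

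The libraries differ in the number of peaks called. The mouse lists held 46656 to 52356 peaks for CTCF in parental cells and 8214 to 15753 in CTCF-degron cells. Rad21 lists held 29721 to 67809 in parental cells, 15689 to 35223 in CTCF-degron cells, 22084 and 32912 in Rad21-degron cells without IAA, and 1383 and 3587 with IAA. The shortest CTCF list, replicate 3 of the CTCF-degron group, and the shortest Rad21 list, replicate 2 of the Rad21-degron group with IAA, stand apart from their own groups, and the main shares and counts are also given without them. The number of reads behind each list is unknown. Human spike-in DNA from HCT116 cells, a colorectal line, was present in 8 of the Rad21 libraries and absent from replicate 1 of parental and of CTCF-degron Rad21, so values for the spike-in libraries alone are added where Rad21 of these lines is compared.

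In parental cells, most ribosomal protein promoters had a CTCF peak and most had a Rad21 peak. CTCF was called at 85.2%, 67.9% and 65.4% of members in replicates 1, 2 and 3, against 38.4%, 31.5% and 32.0% of other protein-coding promoters. Rad21 was called at 96.3%, 80.2% and 58.0% of members, against 48.1%, 37.2% and 25.9% of other promoters. In each of these 6 libraries the members' share lay above the background of the same library. The difference was 38.9 ± 7.04 percentage points for CTCF (SD, n = 3) and 41.1 ± 8.18 points for Rad21 (SD, n = 3), or a mean ratio of 2.14 and 2.13. In the spike-in libraries alone the Rad21 difference was 37.6 points. Set against other genes with a high-CpG promoter only, the difference was 16.04 points for CTCF and 15.3 points for Rad21, so it was smaller by more than 1.5 times. Members were also called in more libraries: a median of 11 of 16 lists had a promoter peak (interquartile range 9 to 13), against 1 for other genes (0 to 9).

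**Figure D1:**
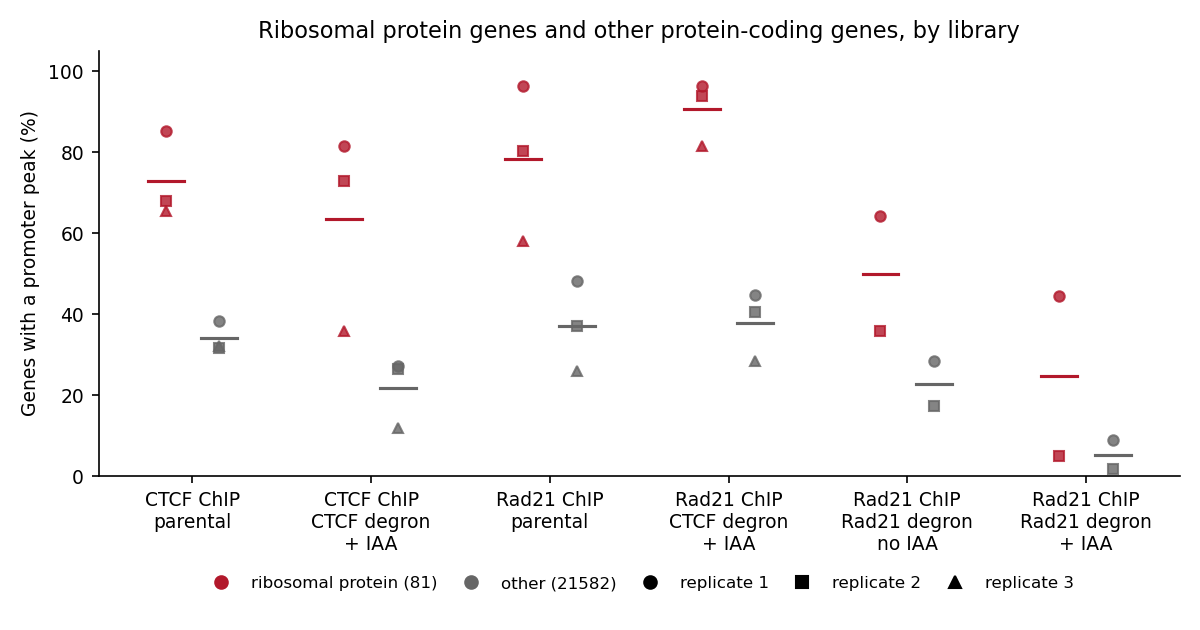
Share of genes with a promoter peak (percent, vertical axis) in each of the 16 libraries, for the 81 ribosomal protein genes (red) and the other 21582 protein-coding genes (grey). Each symbol is a library, its shape the replicate number, and the short line is the group mean. Red lies above grey in every library, from 96.3% against 48.1% in replicate 1 of parental Rad21 to 4.94% against 1.71% in replicate 2 of the Rad21-degron group with IAA.

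Shares were close for both subunits in parental CTCF. The large-subunit genes had a CTCF peak in 76.2 ± 10.4% of cases (SD, n = 3) and the small-subunit genes in 75.6 ± 10.2%. For Rad21 the shares were 85.7 ± 14.3% and 75.6 ± 25.9%. In replicates 1, 2 and 3 they were 100% against 96.7%, 85.7% against 83.3% and 71.4% against 46.7%, so most of the gap came from replicate 3. Rad21 covered all 42 large-subunit promoters in replicate 1 and 30 of them in replicate 3, where 14 of the 30 small-subunit promoters had a peak. The relatives and Rps19bp1 had shares of 44.4 ± 9.62% for CTCF and 44.4 ± 19.2% for Rad21. No list held a promoter peak at Rpl39l, Rpl3l or Rps4y2, which are 3.70% of members, while 48.9% of other genes had none. Rpl3l is known as a striated muscle form of Rpl3, and Rpl39l is best known from testis. Without the relatives and Rps19bp1 the excess over other promoters was 41.1 points for CTCF and 43.8 for Rad21.

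Genes of related machinery had shares between those of ribosomal protein genes and of other promoters. CTCF was called in parental cells at 60.6 ± 14.01% of 77 mitochondrial ribosomal protein genes, 57.8 ± 11.3% of 64 translation factor genes, 57.3 ± 10.7% of 39 proteasome subunit genes and 56.4 ± 11.8% of 26 ribosome biogenesis genes (SD, n = 3 for each). Rad21 was called at 70.6 ± 23.7%, 65.6 ± 21.1%, 66.7 ± 21.9% and 75.6 ± 21.2% of them. For both proteins these shares overlap those of the ribosomal protein genes across libraries. Within each parental library, however, the members' share was above that of each of these related lists. For CTCF the highest related share was 76.6%, 54.5% and 54.7% in replicates 1, 2 and 3, against 85.2%, 67.9% and 65.4% of members. For Rad21 it was 96.2%, 76.9% and 53.8%, against 96.3%, 80.2% and 58.0%. At 1113 olfactory receptor genes, which are best known from the nose, CTCF was called in 0.898 ± 0.0898% and Rad21 in 0.689 ± 0.425%.

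**Figure D2:**
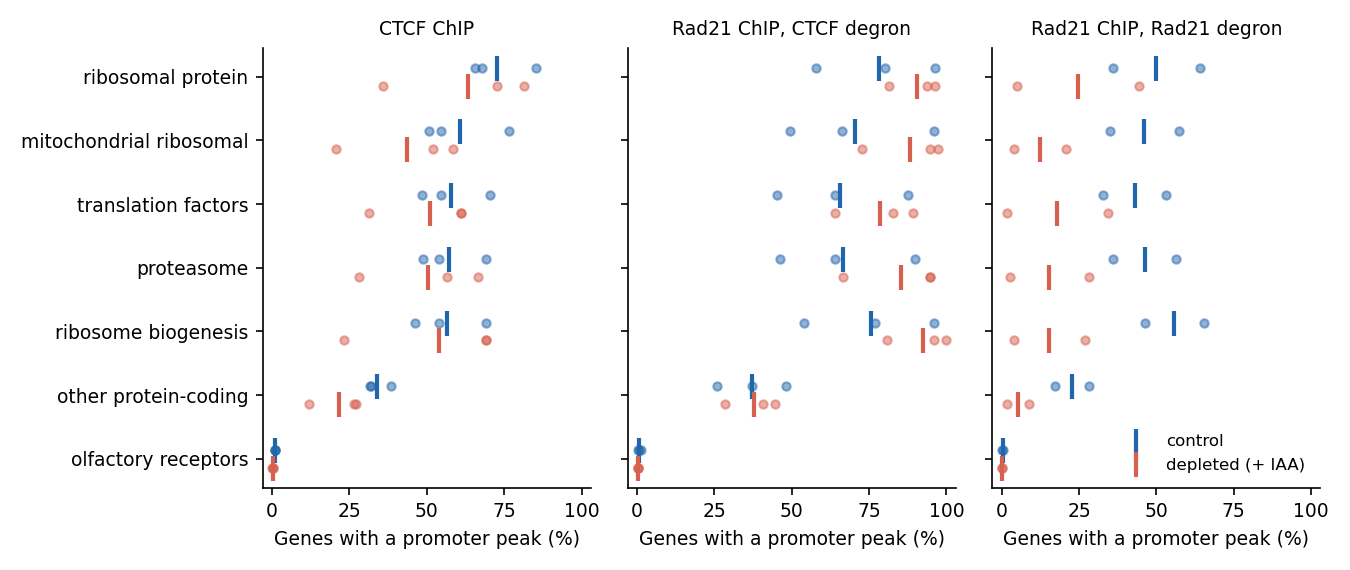
Share of genes with a promoter peak (percent, horizontal axis) for ribosomal protein genes and 6 other gene lists, in control (blue) and depleted (red) libraries. Points are libraries and upright bars are group means. The ribosomal protein row reaches 90.5% for Rad21 in CTCF-degron cells, while olfactory receptors stay near 0 in all 3 panels.

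A total of 47 members had a CTCF peak in all 3 parental libraries, which is 58.0% of members beside 25.7% of all protein-coding genes. Rad21 was in all 3 at 43 members, beside 25.1% of all genes. Both proteins were called in all of their parental libraries at 32 of the 81 members, beside 18.2% of all genes. No member had CTCF in all 3 and Rad21 in none, beside 0.286% of all genes, and 2 members, Rpl28 and Rpl12, had the reverse, beside 0.988% of all genes. Where a member had a Rad21 peak in parental cells, it overlapped a parental CTCF peak in 87.6 ± 3.22% of cases (SD, n = 3), against 83.2 ± 1.36% at other promoters. The CTCF list used for this pools the peaks of all 3 parental libraries.

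The strongest CTCF peaks at these genes were near the top of their lists. At Rplp0, the stalk protein that anchors P1 and P2 on the large subunit, the peak had an authors' fold enrichment of 13.97, 14.8 and 19.2 in replicates 1, 2 and 3. It stood at the 99.4th, 99.4th and 99.5th percentile of those lists, the highest mean rank of any member. The peak of replicate 1 spans chr5:116009139-116009930, covers the transcript start and contains the capitalised core CTCF motif of the run above. Rps3a (percentiles 98.3, 98.2 and 98.3), Rpl26, Rpl5 and Rpl36 also stood near the top, with mean percentiles of 98.3, 98.1, 97.0 and 96.6. On average 22.2 ± 1.72% of the members' CTCF peaks were at or above the 90th percentile of their list (SD, n = 3), against 13.1 ± 0.662% at other promoters.

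Among the highest mean Rad21 percentiles in parental cells were those of Rpl13a (92.8), Rpl11 (88.8), Rpl7l1 (87.1), Rpl36 (82.3) and Rpl24 (80.7). At Rpl13a, a large-subunit protein also known for a role in translational silencing, the fold enrichments were 17.3, 14.6 and 7.63. These peaks lie near the most upstream of its annotated starts. At Rplp0 the Rad21 percentiles were 65.6, 35.0 and 40.2, well below those of CTCF at the same promoter. At or above the 90th percentile were 3.21 ± 1.46% of the members' Rad21 peaks, against 6.86 ± 0.607% at other promoters. The typical Rad21 peak of a ribosomal promoter was in the middle of its list, with a median percentile of 44.5 ± 6.97 against 48.5 ± 7.69.

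**Figure D3:**
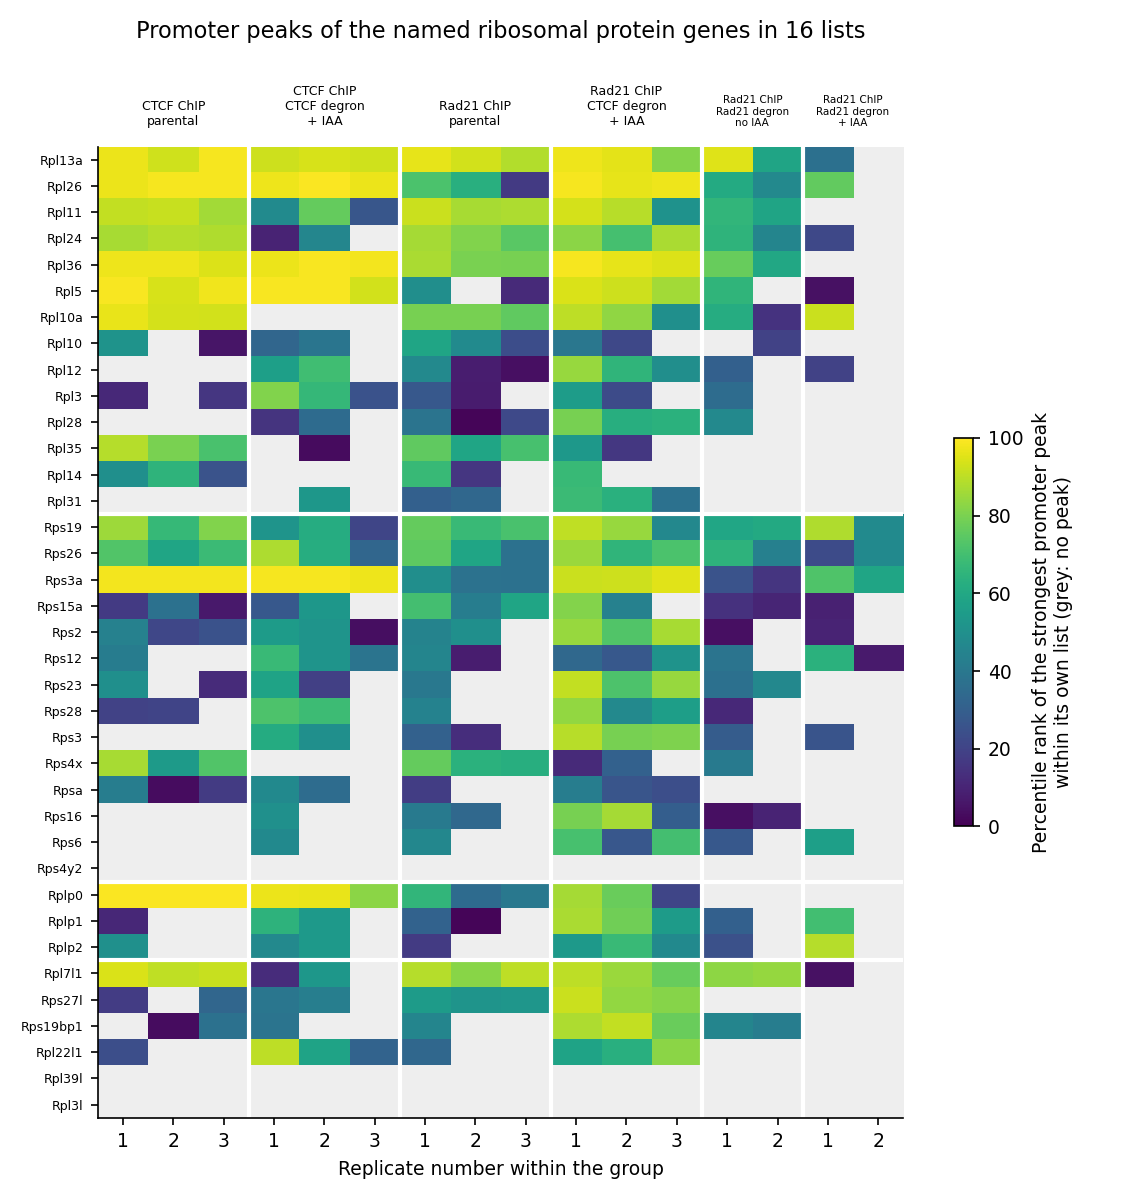
Percentile rank, from 0 to 100, of the strongest promoter peak of the members named in the text (rows, by subunit and then by the number of lists with a peak) in each of the 16 lists (columns, by group and replicate), with grey for no peak. Rplp0, Rps3a, Rpl26, Rpl5 and Rpl36 are bright in the CTCF columns, and the last column is grey but for Rps19, Rps26, Rps3a and Rps12.

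Peaks at ribosomal promoters lay close to the transcript start. For CTCF in parental cells, 72.6 ± 8.82% of the members' peaks were centred within 250 bp of a start (SD, n = 3), against 52.5 ± 4.30% at other promoters. For Rad21 the shares were 85.2 ± 5.11% and 60.4 ± 2.04%. CTCF peaks were centred upstream of the start in 71.7 ± 6.48% of cases, against 59.5 ± 0.681% at other promoters, and Rad21 peaks in 53.2 ± 12.1%, against 50.1 ± 3.77%. Many members have several annotated starts, and with a single start for each gene the excess over other promoters was 40.5 points for CTCF and 41.8 for Rad21.

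The core CTCF motif was found inside the strongest parental CTCF peak of 4 members, among them Rplp0, Rpl13a and Rps4x, in each of the 3 libraries. That is 5.80%, 7.27% and 7.55% of the members' peaks, beside 6.05%, 7.42% and 7.17% at other promoters, so the members' peaks held it about as often. The motif with 20 bases on each side is shown because a CTCF motif lay under the peak of these members. Capitals are the motif, and each line is written on the strand of the motif.
Rplp0, chr5:116009279-116009330, plus strand: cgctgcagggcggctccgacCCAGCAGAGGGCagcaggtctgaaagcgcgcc
Rpl13a, chr7:52391846-52391897, minus strand: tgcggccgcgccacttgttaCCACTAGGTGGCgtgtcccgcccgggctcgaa
Rps4x, chrX:99384755-99384806, minus strand: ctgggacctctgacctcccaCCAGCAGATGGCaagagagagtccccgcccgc
From the nearest transcript start the motif centres lie at -171.5 bp in Rplp0, -84.5 bp in Rpl13a and -47.5 bp in Rps4x, where negative is upstream. Rpl13a is also the member with the highest mean Rad21 rank in parental cells. Its parental Rad21 peaks cover this motif, near the most upstream annotated start. The gene has another annotated start downstream, so these peaks may not mark the start that is mainly used, which was not tested.

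The next comparison asks what became of CTCF peaks at these promoters in the CTCF-degron line with IAA. At other promoters the share was lower in every depleted library than in any parental one, and at ribosomal protein promoters the groups overlapped. Members were called in 81.5%, 72.8% and 35.8% of cases in replicates 1, 2 and 3, against 85.2%, 67.9% and 65.4% in parental cells. The mean was 63.4 ± 24.3% against 72.8 ± 10.8% (SD, n = 3 each), a difference of -9.47 points with overlapping groups. Without replicate 3 of the CTCF-degron group the difference was 4.32 points, so its sign rests on that library. It was -18.5 points without replicate 1 of that group and -3.29 points without parental replicate 1. Other protein-coding promoters were called in 27.2%, 26.3% and 11.8% against 38.4%, 31.5% and 32.0%, a difference of -12.2 points without overlap (exact two-sided permutation p = 0.1, n = 3 each, the smallest p this design allows). Without CTCF-degron replicate 3 the latter was -7.20 points. Over the 4 comparisons tested in this way the Benjamini-Hochberg adjusted p was 0.4. With peaks of fold enrichment 4 or more alone, other promoters were called in 22.8%, 19.5% and 23.9% of parental and 25.2%, 24.6% and 11.8% of depleted libraries, a difference of -1.53 points with overlapping groups (exact permutation p = 1). It was -9.17 points at q of 0.001 or less, and 6.69 points with every list shortened to 8214 peaks. The members' difference was 10.7 points at fold enrichment 4 or more and 26.7 points in the shortened lists. The excess of members over other promoters was 41.6 ± 15.7 points in depleted cells.

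Of the 47 members with CTCF in all 3 parental libraries, 22 were also called in all 3 depleted libraries (28.2% of all genes with such a control peak were), 3 were called in none (28.9% of all genes), and 22 were mixed. The members' shares were 46.8% kept and 6.38% lost. Among 15 proteasome genes with such a peak they were 46.7% and 6.67%, and among 28 translation factor genes 39.3% and 14.3%. Among 32 mitochondrial ribosomal genes they were 31.25% and 18.75%, and among 10 ribosome biogenesis genes 30% and 0%. Keeping the CTCF peak was therefore not particular to the ribosomal protein genes. Without depleted replicate 3 the kept members numbered 37, beside 52.1% of all genes, a count chosen after the data were seen. The 3 without a depleted peak were Rpl10a, Rps4x and Rpl14. Without depleted replicate 1 there were 7 such members, and without depleted replicate 2 there were 5. None of the 10 members that lacked CTCF in every parental library had it in all depleted ones, beside 0.606% of all genes. Among the 47, a CTCF peak was called in 73.8 ± 21.7% of cases per depleted library (SD, n = 3), against 51.0 ± 17.7% of the 5525 other genes with CTCF in all 3 parental libraries. Small-subunit members with a peak in all 3 depleted libraries numbered 12 of 30, and large-subunit members 14 of 42, beside 10.5% of all genes.

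At Rpl10a, a large-subunit protein near the tRNA exit site, the parental fold enrichments of 10.8, 10.0 and 12.5 stood on percentiles 96.7, 93.5 and 93.3, and no depleted library had a peak. At Rps4x, the X-linked S4 gene, they were 8.48, 5.01 and 8.49. At Rpl14, another large-subunit gene, they were 4.43, 6.07 and 4.10, on percentiles 50.0, 64.9 and 25.6. These 3 members had high, middling and low parental peaks. Rplp0, Rps3a and Rpl26 were among the kept members of highest parental rank. In the depleted lists Rplp0 stood on percentiles 97.0, 96.8 and 82.6, Rps3a on 98.7, 98.6 and 97.3, and Rpl26 on 97.5, 99.3 and 97.2. These promoters were thus near the top of every CTCF list, parental or depleted, the lowest place being 82.6 for Rplp0.

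The members with a CTCF motif under the peak did not share 1 outcome. Rplp0 and Rpl13a had a peak over the motif in all 3 depleted CTCF libraries, and Rps4x had no promoter peak in any. In the Rad21 lists of CTCF-degron cells, the Rps4x peaks of replicates 1 and 2, chrX:99384418-99384731 and chrX:99384433-99384753, end before the motif at chrX:99384775-99384786, and replicate 3 had none. In parental cells the Rad21 peaks of all 3 replicates reached over it, for example chrX:99384177-99385017 in replicate 1. Rpl13a had fold enrichments of 6.35, 9.71 and 7.05 in the depleted CTCF lists, on percentiles 92.3, 94.1 and 93.0.

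CTCF peaks called in depleted cells were centred nearer to the start. Within 250 bp were 93.8 ± 4.37% of the members' CTCF peaks in depleted cells, against 72.6 ± 8.82% in parental cells (SD, n = 3 each, ranges 89.8% to 98.5% and 66.0% to 82.6%, without overlap). Other promoters had 80.2 ± 1.40% against 52.5 ± 4.30%. In 15 of the 47 members the median parental CTCF peak was more than 250 bp from a start, and 14 of these had a depleted peak. In 11 of the 14 (78.6%) the depleted peak was within 250 bp, as it was in 63.7% of 1758 such other genes. These genes were chosen by their parental position, so part of any move towards the start is built into the choice.
At Rps19, a small-subunit protein whose human gene is mutated in Diamond-Blackfan anaemia, the median was -396.5 bp in parental cells and -51 bp in depleted ones. At Rpl11, a large-subunit protein that can bind Mdm2, it was -438 and -9 bp, and at Rps2 -530 and -55 bp. The centres of the parental peaks of Rpl11 in replicates 2 and 3, and of Rps2 in replicate 2, are sequences with further copies in the genome, so these positions are uncertain.

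**Figure D4:**
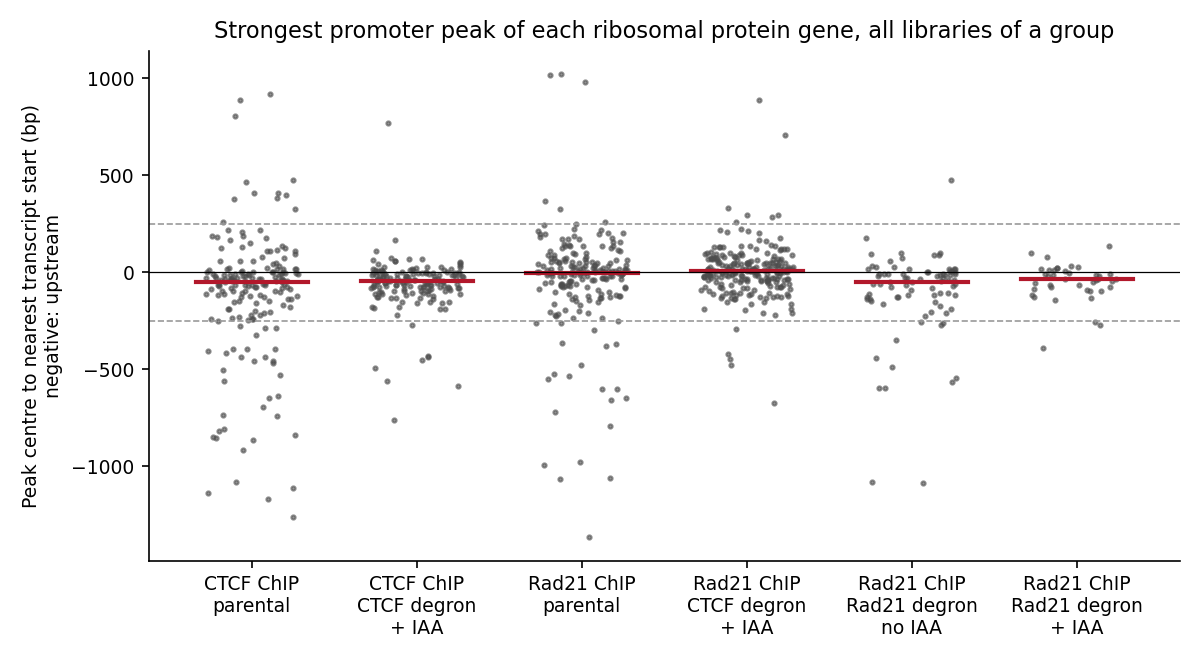
Distance in bp from the centre of the strongest promoter peak of each member to the nearest transcript start (vertical axis, negative is upstream), with all libraries of a group together. Points are peaks, red lines are medians and dashed lines mark 250 bp. Parental CTCF peaks spread far upstream, and 93.8% of the CTCF peaks of CTCF-degron cells fall between the dashed lines on average.

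The Rad21 lists of the same CTCF-degron cells answer whether cohesin peaks at these promoters were still called. No member with Rad21 in all 3 parental libraries was without it in the CTCF-degron cells: of 43, 39 were called in all 3 depleted libraries (72.3% of all genes with such a control peak), 0 were called in none (5.64% of all genes), and 4 (Rpl10, Rpl35, Rps15a and Rps4x) were called in 2. Of the 3 members that lacked Rad21 in every parental library none gained it, beside 0.394% of all genes. Members were called in 96.3%, 93.8% and 81.5% of cases in replicates 1, 2 and 3, against 96.3%, 80.2% and 58.0% in parental cells. The means were 90.5 ± 7.94% and 78.2 ± 19.2% (SD, n = 3 each), a difference of 12.3 points that is smaller than the parental spread, with overlapping groups. Without parental replicate 3 the difference was 2.26 points, and without parental replicate 1 it was 21.4 points. In the spike-in libraries alone it was 18.5 points. Other promoters were called in 37.9 ± 8.54% against 37.1 ± 11.1%, a difference of 0.83 points (exact two-sided permutation p = 0.9, n = 3 each, adjusted p = 0.9). Without parental replicate 3 this was -4.76 points, and in the spike-in libraries alone 2.95 points.

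A total of 66 members had Rad21 in all 3 CTCF-degron libraries, beside 28.1% of all genes, and 43 had it in all 3 parental ones, beside the 25.1% given above. Counted gene by gene, 28 members were called in more CTCF-degron than parental libraries, 5 in fewer and 48 in as many. In percent these are 34.6, 6.17 and 59.3, beside 14.7, 11.3 and 73.9 of other genes. Of the other genes, 10811 had Rad21 in no library of either group and count among those called in as many. The 7 members that went from 1 parental library to all 3 depleted ones were Rpl22l1, Rplp2, Rps19bp1, Rps23, Rps28, Rps6 and Rpsa, which are named after their values were seen. They are 7 of 81 members, beside 3.11% of all genes with the same change. Rpsa encodes the laminin-receptor-like protein of the small subunit. It had a Rad21 fold enrichment of 3.54 in parental replicate 1 and of 4.35, 4.36 and 4.16 in the CTCF-degron libraries, on percentile 18.02 and on 42.4, 26.3 and 24.1. The stalk genes Rplp1 and Rplp2 had Rad21 in 2 and 1 parental libraries and in all 3 depleted ones. Rplp1 stood on Rad21 percentiles 31.6 and 1.54 in parental replicates 1 and 2, and on 87.3, 78.5 and 54.99 in CTCF-degron replicates 1, 2 and 3. These percentiles come from lists of different length and describe a place in the list only.

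The related gene lists had Rad21 in similar shares of CTCF-degron cells. The mean was 92.3 ± 10.2% for ribosome biogenesis, 88.3 ± 13.6% for mitochondrial ribosomal proteins, 85.5 ± 16.3% for the proteasome and 78.6 ± 13.0% for translation factors (SD, n = 3 each). In the same order these means were 16.7, 17.7, 18.8 and 13.0 points above the parental ones, with overlapping groups. For members the difference was 12.3 points. None of these lists lost a gene with Rad21 in all 3 parental libraries. High Rad21 calling, the higher share in CTCF-degron cells and the absence of lost genes were therefore not particular to the ribosomal protein genes. Olfactory receptors were at 0.359% in each of the 3 libraries.

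Shortening every list to its 15689 highest fold enrichments puts parental and depleted lists on the same length. Ribosomal protein promoters were then called for Rad21 in 9.88%, 13.6% and 28.4% of cases in parental replicates 1, 2 and 3. In CTCF-degron replicates 1, 2 and 3 they were called in 81.5%, 76.5% and 81.5%. The difference was 62.6 points and the groups did not overlap. Other promoters were called in 10.4%, 9.68% and 12.5% of parental and 30.1%, 28.9% and 28.3% of CTCF-degron lists. Among the highest parental Rad21 peaks, then, ribosomal promoters were about as frequent as other promoters in replicates 1 and 2. Among those of CTCF-degron cells most of them appeared. The shortened lists rest on the authors' fold enrichment and say which peaks lead a list, and do not measure an amount of Rad21.

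The places of single members in the full lists are set side by side here. Rpl26, at the exit of the peptide tunnel, stood on Rad21 percentiles 71.7, 63.0 and 17.1 in parental cells and 98.6, 96.3 and 97.4 in CTCF-degron cells. Rps3a stood on 49.5, 37.6 and 37.3, and on 91.9, 92.5 and 95.6. Rpl13a, the highest in parental cells at 96.4, 93.3 and 88.7, stood on 97.3, 95.9 and 81.3. Rpl11 stood on 91.8, 86.9 and 87.7, and on 93.7, 89.3 and 50.9. The kept relative Rpl7l1 stood on 88.7, 82.4 and 90.2, and on 89.9, 84.9 and 76.7. The median member peak stood on percentile 68.7 ± 11.7 in CTCF-degron lists, against 59.0 ± 7.39 for other promoters of those lists (SD, n = 3).

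Rad21 peaks of CTCF-degron cells were also centred on the start. Within 250 bp were 94.5 ± 0.504% of the members' peaks, against 77.5 ± 2.08% at other promoters, and 92.6 ± 9.39% covered a start, against 75.3 ± 12.7% (SD, n = 3). Most of these Rad21 peaks overlapped a CTCF peak that was still called in the CTCF-degron cells, 89.0 ± 1.54% at members and 70.4 ± 1.32% at other promoters. In every one of the 3 libraries the members' share was higher. The members' Rad21 peaks were also wider there, with medians of 939.5, 696.5 and 383.5 bp in replicates 1, 2 and 3, against 789, 516 and 265.5 bp. The CTCF list again pools all 3 libraries of the group. The part of peak width in the overlap was not tested.

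The members were also grouped by their parental CTCF calls. In the Rad21 lists of CTCF-degron cells, the 47 members with CTCF in all 3 parental libraries were called in 95.0 ± 6.84% of cases, the 24 with CTCF in 1 or 2 in 93.1 ± 12.03%, and the 10 with CTCF in none in 63.3 ± 5.77% (SD, n = 3). The same classes of other genes were called in 78.5 ± 13.1%, 76.4 ± 17.5% and 8.27 ± 3.89%. In the parental Rad21 lists the shares were 88.7 ± 14.5%, 70.8 ± 27.3% and 46.7 ± 25.2% of members, and 86.9 ± 13.9%, 64.9 ± 27.6% and 6.52 ± 5.24% of other genes. Among the 10, Rpl39l, Rpl3l and Rps4y2 had no peak in any library, and Rpl12, Rpl28, Rpl31, Rps16, Rps3 and Rps6 had Rad21 in all 3 CTCF-degron libraries. Rpl28 and Rpl12, whose runs are printed above, had Rad21 fold enrichments of 3.99, 3.94 and 4.24, and of 4.24, 4.09 and 3.96, in parental replicates 1, 2 and 3. These parental peaks were below the middle of their lists, on percentiles 38.4, 1.54 and 22.3 for Rpl28 and 47.0, 7.91 and 4.17 for Rpl12. In CTCF-degron replicates 1, 2 and 3 the fold enrichments were 5.65, 5.12 and 4.68, and 6.10, 5.21 and 4.47. The percentiles there were 79.3, 62.5 and 63.7 for Rpl28 and 84.5, 65.4 and 49.2 for Rpl12. Both had a CTCF peak in CTCF-degron replicates 1 and 2, although none in parental cells. The centre of the Rpl12 Rad21 peak occurs more than once in the genome in parental replicates 1 and 3, so reads there could come from copies.

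**Figure D5:**
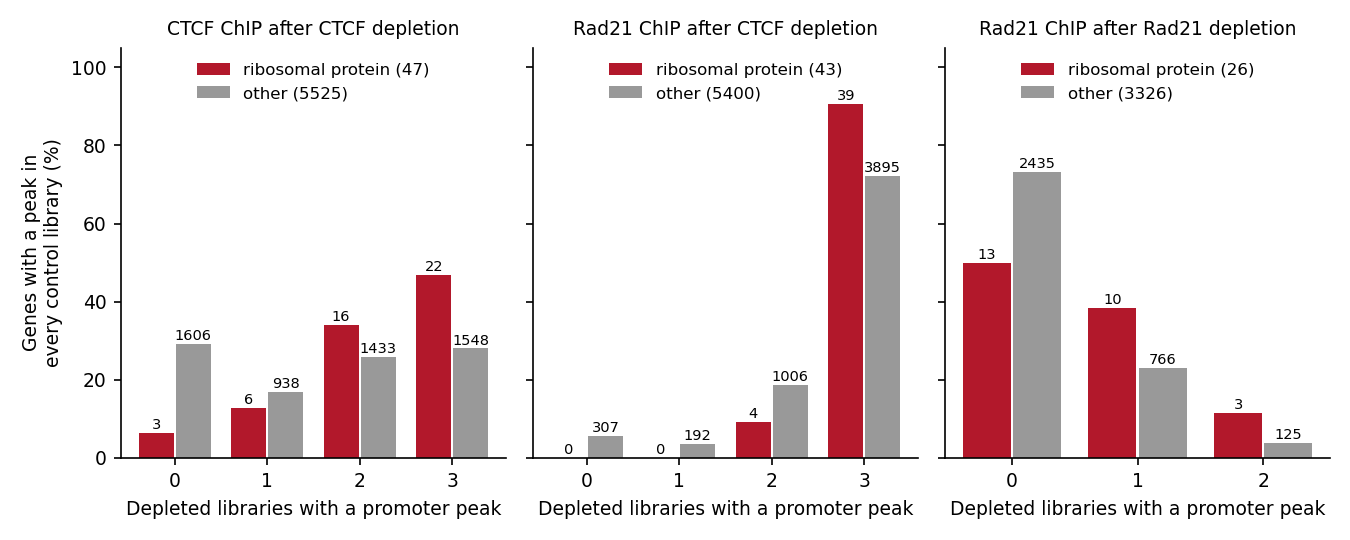
Genes with a promoter peak in every control library, by the number of depleted libraries with a peak (horizontal axis), as percent of the ribosomal protein genes (red) and of the other protein-coding genes (grey), with the gene count over each bar. For Rad21 after CTCF depletion, 39 of 43 members are in the rightmost bar and none in the bar at 0, while for Rad21 after Rad21 depletion 13 of 26 are at 0.

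The Rad21-degron line tests which Rad21 peaks are called once Rad21 itself is targeted. Without IAA, Rad21 was called at 64.2% and 35.8% of members in replicates 1 and 2, and with IAA at 44.4% and 4.94%, or 36 and 4 genes. The means were 50.0 ± 20.1% and 24.7 ± 27.9% (SD, n = 2 each), a difference of -25.3 points with overlapping groups. Without the IAA replicate 2 the difference was -5.56 points, and without the IAA replicate 1 it was -45.1 points, so its size rests on which IAA library is used. It was -11.1 points without control replicate 1 and -39.5 points without control replicate 2. Other promoters were called in 28.3% and 17.3% without IAA and in 8.92% and 1.71% with it, a difference of -17.5 points without overlap (exact two-sided permutation p = 0.333, n = 2 each, the smallest p this design allows, adjusted p = 0.444). The members' share was 3.93 times the background on average with IAA and 2.17 times without.

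Of the 26 members with Rad21 in both libraries without IAA, 13 had none in either IAA library (73% of all genes with such a control peak), 3 had it in both (3.82%), and 10 were mixed. Such control peaks were lost at 54.2% of 24 mitochondrial ribosomal, 56.25% of 16 translation factor, 61.5% of 13 proteasome and 80% of 10 ribosome biogenesis genes. No gene of these lists kept the peak in both IAA libraries. None of the 26 members that lacked Rad21 without IAA had it in both IAA libraries, beside 0.126% of all genes. Without control replicate 2, or without IAA replicate 1, the count of members that lost the peak was 23. Rpl36 and Rpl11 were among the lost members of highest control rank. Rpl36 stood on percentiles 76.9 and 60.1 without IAA, and Rpl11 on 65.8 and 58.4.

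The 3 members that kept Rad21 with IAA were small-subunit genes, and this rests on IAA replicate 2, where 4 members were called. Without that library, a choice made after the data were seen, 13 of the 26 kept the peak, 8 of them large-subunit and 4 small-subunit genes, beside 25.2% of all genes with such a control peak. Rps19, Rps26 and Rps3a had a peak in both IAA libraries and in all 16 lists of the series, as 0.297% of other genes did. Rps12 had one in both IAA libraries but in 1 of the libraries without IAA. Rps19 had fold enrichments of 4.75 and 4.89 without IAA and 6.19 and 4.92 with it. Rps26, whose product contacts mRNA upstream of the start codon, had 4.97 and 4.42, and 4.63 and 4.91. Rps3a had 3.97 and 3.93, and 5.45 and 5.11. In the lists without IAA they stood between percentiles 15.4 and 64.6. The Rps26 peaks with IAA, chr10:128063705-128063932 and chr10:128063918-128063989 in replicates 1 and 2, do not overlap the start but lie upstream of the gene. The IAA peaks of Rps3a, chr3:85946510-85946717 and chr3:85946498-85946710, and of Rps19, chr7:25669079-25669679 and chr7:25669268-25669537, cover a start. No large-subunit member was called in IAA replicate 2, and 19 of the 42 were called in replicate 1. Rpl13a's IAA peak in replicate 1, chr7:52384078-52384441, lies at another annotated start, downstream of the motif at chr7:52391866-52391877. Which of these starts is mainly used was not tested.

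With both lists of each group shortened to 1383 peaks, no member was called without IAA, and 19.8% and 4.94% were called with it. Other promoters were called in 0.635% and 0.626% without IAA and in 2.93% and 1.71% with it. The highest Rad21 peaks of cells without IAA held no ribosomal promoter, and the few peaks called with IAA held some. The core CTCF motif was in 3.85% and 6.90% of the members' peaks in replicates 1 and 2 without IAA, beside 5.13% and 6.88% at other promoters. With IAA it was in 0 of 36 and 0 of 4 members' peaks, beside 0.260% and 0% at other promoters. The members' shares without IAA are 2 of 52 and 2 of 29 peaks, so the counts are small. Median widths of the members' peaks were 159.5 and 161 bp with IAA, against 246.5 and 238 bp without. The part of peak width in this was not tested.

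The Rad21-degron line without IAA was also set beside the parental line. Rad21 was called at 50.0 ± 20.1% of members (SD, n = 2) against 78.2 ± 19.2% in parental cells (SD, n = 3), a difference of -28.2 points with overlapping groups. At other promoters the difference was -14.3 points, also with overlapping groups (exact two-sided permutation p = 0.3, adjusted p = 0.444). In the spike-in libraries alone, a choice made after the data were seen, it was -19.1 points for members and -8.72 points for other promoters (exact two-sided permutation p = 0.667, n = 2 each). The stalk gene Rplp0, with Rad21 in all 3 parental libraries, had none in either Rad21-degron group, and Rpsa had none either.

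Ribosomal protein genes have many processed copies in the genome, so reads may be shared with a copy. The central 31 bp of the members' strongest peaks occurred more than once in 43 of 862 peaks, in 27 members. Besides those of Rpl11, Rps2 and Rpl12, these include CTCF peaks of Rpl26 (parental replicate 2) and Rpl5 (CTCF-degron replicate 1). Rad21 peaks of Rpl36 (parental replicates 1 and 3), Rps3a (CTCF-degron replicate 1) and Rpsa (CTCF-degron replicate 2) are also among them. The share by library ran from 0% to 14.5%, the latter in CTCF parental replicate 2. Its part in the results was not tested. A further limit is that 14 members (17.3%) have the start of another gene inside the promoter window, against 13.2% of other genes, so their peaks cannot be given to 1 gene.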

How the data were processed

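Each of 16 immunoprecipitated libraries has 1 deposited broadPeak list, and the 8 input libraries were not analysed here. Reads were aligned with Bowtie2 2.2.8 and handled with SAMtools 1.8, per the submitters' processing notes, to a hybrid of mm9 and a further sequence, per the labels. The peak caller, its threshold and the use of inputs are not given in the sources used here. Peaks were called per library. The deposited values are a fold enrichment (a linear ratio) and −log10 of the p-value and q-value for each peak. Human contigs of the HCT116 spike-in, present in 8 Rad21 lists, were dropped, as was chromosome 12, where peak ends exceed the reference length.

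From these, a promoter was called when a peak overlapped it by at least 1 bp. The percentile rank orders a promoter's strongest peak by fold enrichment within its own mouse list. A member kept a peak when it had one in every control and every depleted library and lost it when it had one in every control and no depleted library. Members get no p-value. The percent of other protein-coding genes was compared by exact two-sided permutation with the library as the unit. Sequence is from NCBIM37 (mm9), where peak ends fit all chromosomes but 12. Copies of peak centres were counted over chromosomes 1 to 19, X and Y. The named genes are the 6 of highest mean rank among members with a peak in every parental library, for each protein, the 4 kept and 4 lost of highest control rank in each comparison, those in all or no lists, up to 4 with Rad21 in every and CTCF in no parental library, and the stalk genes and Rpsa. Some members that this rule picks are not reported here. Further members are named where a small count or a position is described, after their values were seen. Members, lists and tests were chosen with earlier results of these data known. Alternatives were a stricter q-value or fold enrichment, other windows, 1 start per gene, equal list lengths, each library left out, fewer members, high-CpG background, spike-in libraries alone and a replicate block. Kept members with each library left out, and spike-in libraries alone for the Rad21-degron line without IAA, were added after the data were seen. Scripts were tested on simulated data. Python 3.11.15 and numpy 2.4.6 were used. Depth is unknown, so no counting interval is given.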

Additional observations from a re-analysis of the deposited data

How the results depend on the processing

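Of 158 recalculations, 128 kept the direction and either the side of the test's threshold or, where no test was run, moved by less than the replicate SD (for counts, by at most 1.5 times). A further 19 moved more and 11 turned direction. Where a test was run, the smallest p of the exact permutation was 0.1, or 0.333 with 2 libraries against 2. At any threshold below 0.1 the tested rows therefore counted as kept whenever the direction held, whatever their size. Sizes also shifted among the 128: the members' change after Rad21 depletion was -3.09 points at q of 0.001 or less and -7.41 at fold enrichment of 4 or more, that of other promoters after CTCF depletion was -1.53 at fold enrichment of 4 or more, and that of Rad21 at other promoters after CTCF depletion was 18.3 with equal lengths. The mean excess of ribosomal over other parental promoters was positive under each setting run: for CTCF it was 24.7 points at q of 0.001 or less, 29.4 at fold enrichment of 4 or more and 16.04 against high-CpG promoters, and for Rad21 25.7, then 27.3 with parental lists of 29721 peaks and 15.3 against high-CpG promoters. At 15689 peaks, parental Rad21 replicate 1 had fewer members than other promoters called, 9.88% against 10.4%. For Rad21 after Rad21 depletion, equal list lengths turned the change to 12.3 points for members and 1.69 for other promoters. The count of lost members was 5 at the stricter q and 0 with equal lengths, and 13 to 23 over the libraries left out. For CTCF after CTCF depletion, the members' change turned to 10.7 points at fold enrichment of 4 or more and 26.7 with equal lengths, and ran from -18.5 to 4.32 over the libraries left out. The change at other promoters turned to 6.69 points with equal lengths. Lost members numbered 7 at the stricter q, 5 with 2000 bp windows, and 3 to 7 over the libraries left out. For Rad21 after CTCF depletion, the members' change was 62.6 points with equal lengths. That at other promoters was -4.89 at the stricter q and -1.01 with 2000 bp windows, and ran from -4.76 to 6.37 over the libraries left out. Lost members numbered 1 at the stricter q and 1 with 2000 bp windows. Kept members, recounted after the data were seen, numbered 3 to 13 for Rad21 depletion, 22 to 37 for CTCF and 39 to 56 for Rad21 after CTCF depletion over the libraries left out. Shorter lists hold fewer peaks by construction, and otherwise the cause was not tested.

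Same-numbered libraries did not deviate together in every pair (correlations from -0.033 to 0.472), and the numbers were not used as pairs. For Rad21 after CTCF depletion the same-numbered pairs had 0.472, 0.036 and 0.336, and differently numbered pairs ran from -0.397 to 0.129. Whether the numbers mark batches was not tested. With the replicate number as a block the mean changes are the same by construction, -25.3, -9.47 and 12.3 points for members, and for other promoters the exact sign-flip permutation p is 0.5 for Rad21 depletion, 0.25 for CTCF and 0.75 for Rad21 after CTCF depletion. The smallest sign-flip p that 3 pairs allow is 0.25, and 0.5 is the smallest that the pairs of Rad21 depletion allow. Without the block the smallest permutation p was 0.1. At any lower threshold no call could change, so nothing is read from the block.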
